A study of Mus musculus with 12 samples.

Results

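Malat1, Neat1, Kcnq1ot1 and Gas5 are 4 long noncoding RNAs, and together they are 4 of the 27179 gene IDs counted in polysome gradient pools of mouse liver. They were chosen by name: Malat1, Neat1 and Kcnq1ot1 as RNAs that stay in the nucleus, and Gas5 as a cytoplasmic RNA whose transcript begins with a terminal oligopyrimidine (TOP) motif. The question was how RNA that ribosomes do not translate is spread over gradient pools that are meant to separate mRNA by its load of ribosomes. The heavy-over-light values of these RNAs were known when they were chosen, so those values are given below as a description, with no test. In total 671 of the IDs annotated as lncRNA had at least 1 count.

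The livers came from male C57BL/6 mice, and their RNA was spun through a sucrose gradient and combined into a heavy and a light polysome pool per animal. For 24 h, wild-type mice ate a ketogenic diet, whose energy comes mainly from fat (2 animals, keto 1 and keto 2). A mouse with the eIF4E S209A/S209A genotype ate chow (1 animal, S209A), so it carried on both alleles a change in the cap-binding protein eIF4E that removes the serine phosphorylated by the MNK kinases. Wild-type mice on chow made up the third group (3 animals, chow 1 to chow 3). The design text of the series speaks of fed and fasted livers, while the sample labels say chow and keto, and the labels were followed here. No age is given, a time label of 0 h stands against the 24 h of the protocol, and the labels do not say which range of gradient fractions made up which pool. The change in eIF4E is a point change, so read counts do not check that genotype.

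The 12 libraries, made from 10 ng of RNA with a stranded total RNA kit, held 3341046 counts (S209A light) to 13263355 counts (keto 1 heavy). Nuclear protein-coding genes took 4.09% to 39.3% of them. In the heavy pool their share was 5.60% and 6.01% in keto 1 and 2, 29.6% in S209A, and 15.9%, 22.2% and 29.7% in chow 1, 2 and 3. Per the file headers, chow 1 and chow 2 were aligned with Bowtie2 and chow 3 and S209A with HISAT2, and the headers of both keto animals name no aligner. Chow 3 and S209A are also the animals whose titles say fed. No header type holds both diets, so diet and the processing named in the headers cannot be told apart. Among counts of 1 to 30, 85.6% to 88.8% were even numbers in chow 3 and S209A, and 60.8% to 69.8% in the other 8 libraries. Hepatocyte markers summed to between 4992 and 13990 CPM (counts per 1000000 after library scaling) and lymphocyte markers to at most 3.04, with Cd3d at 0 in all 12 libraries. Erythroid markers, 4 of 5 counted, summed to 9.89 to 93.6 CPM in the keto libraries and to 3.35 to 23.3 CPM in the chow libraries, and their part in the differences below was not tested. These are bulk samples, in which fewer cells of a type and less RNA per cell cannot be told apart.

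Malat1 is among the most abundant nuclear RNAs of mammalian cells and gathers at nuclear speckles, bodies rich in splicing factors. Neat1 is the scaffold of paraspeckles, nuclear bodies that hold RNA-binding proteins such as Nono and Sfpq. Kcnq1ot1 is transcribed antisense to Kcnq1 from the paternal chromosome, stays at its site of synthesis and silences neighbouring genes of an imprinted domain. Gas5 is spliced and exported, carries snoRNAs in its introns, and its exons hold no long reading frame. Ribosomes that enter it send it to nonsense-mediated decay, and like the mRNAs of ribosomal proteins it belongs to the TOP class, whose translation follows mTOR signalling.

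In assembly GRCm38.p6, Malat1 (ID 72289) lies on chromosome 19 from 5795690 to 5802672, and Neat1 (ID 66961) on the same chromosome from 5824708 to 5845480, with 22035 bases between them. Kcnq1ot1 (ID 63830) spans 83437 bases of chromosome 7, from 143213111 to 143296547, and lies within the gene body of Kcnq1. Gas5 (ID 14455) lies on chromosome 1 from 161034601 to 161038539 and has 8 annotated transcripts. All 4 are annotated as lncRNA genes. The strand setting of the counting is not given in the sources used here. Reads of Kcnq1ot1 and Kcnq1 may therefore not be told apart. Kcnq1 itself had 0 to 10 counts per library, which does not limit how many of its reads were counted as Kcnq1ot1. Gas5 also overlaps other annotated genes, among them Zbtb37 with 0 to 20 counts per library and the intronic Snord47 with 0, so its counts carry the same uncertainty.

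RefSeq start sites were available for 3 of the 4 RNAs, all but Neat1, and are shown because the TOP motif is the sequence feature by which Gas5 was set against the others. Each line gives 30 bases before and 30 bases from the annotated start onward, 5′ to 3′ on the transcribed strand. Capitals mark an unbroken run of C and T that begins with C at the first transcribed base and goes on for at least 4 more. Rps6, the ribosomal protein phosphorylated downstream of mTOR, is shown as an mRNA of the TOP class.
Malat1, chr19:5802643-5802702, minus strand: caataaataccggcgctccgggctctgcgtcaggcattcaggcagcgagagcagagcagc
Kcnq1ot1, chr7:143296518-143296577, minus strand: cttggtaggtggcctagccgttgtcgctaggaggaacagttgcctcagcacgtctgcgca
Gas5, upstream start, chr1:161034571-161034630, plus strand: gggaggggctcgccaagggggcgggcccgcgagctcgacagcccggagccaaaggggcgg
Gas5, downstream start, chr1:161035136-161035195, plus strand: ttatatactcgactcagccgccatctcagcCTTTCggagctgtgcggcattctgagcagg
Rps6, chr4:86857338-86857397, minus strand: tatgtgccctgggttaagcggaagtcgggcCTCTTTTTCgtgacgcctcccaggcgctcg

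Of the 2 annotated Gas5 starts, the downstream one carries such a run, of 5 bases, and the upstream one does not. The Rps6 run is 9 bases long. Malat1 begins with C but has a purine next to it, and Kcnq1ot1 begins with a purine. Over all annotated starts the run was present at 823 of 32851, or 2.51%. Among starts of genes on a list of TOP mRNAs, made up of cytosolic ribosomal protein genes and translation factors, it was present at 19 of 90, or 21.1%. For snoRNA host lncRNAs other than Gas5 it was present at 2 of 16, or 12.5%. A match depends on the annotated first base and is a description of these letters only.

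Malat1 held most counts of genes annotated as lncRNA in every library. It took 74.3% (chow 1 heavy) to 90.5% (keto 1 heavy) of them. Gas5 took 0.0102% (keto 1 heavy) to 0.448% (S209A heavy) of them. All 4 RNAs were counted in both pools of all 6 animals.

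In the heavy pool Malat1 had 53456 counts in keto 1, 15750 in keto 2, 13186 in S209A, and 3676, 12363 and 32851 in chow 1, 2 and 3. In the light pool it had 15864 in keto 1, 5560 in keto 2, 4949 in S209A, and 18752, 20249 and 18152 in chow 1, 2 and 3. Library size and composition differed, so levels are given as CPM, that is counts per 1000000 of a library size scaled by edgeR's trimmed mean of M-values (TMM). On that scale heavy Malat1 was 8393 and 3038 CPM in keto 1 and 2, 1354 CPM in S209A, and 911, 1789 and 2391 CPM in chow 1, 2 and 3. Both keto animals stood above all 3 chow animals in the heavy pool. Light Malat1 was 3020 and 1963 CPM in keto, 635 CPM in S209A, and 3275, 2905 and 1414 CPM in chow, so keto lay within the chow range there.

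Neat1 had 470 and 144 heavy counts in keto 1 and 2, 42 in S209A, and 40, 97 and 167 in chow 1, 2 and 3. Its light counts were 162 and 51 in keto, 32 in S209A, and 189, 192 and 96 in chow. The heavy level was 73.8 and 27.8 CPM in keto, 4.31 CPM in S209A, and 9.92, 14.0 and 12.2 CPM in chow. As for Malat1, both keto animals were above all chow animals in the heavy pool. The light level was 30.8 and 18.0 CPM in keto, 4.11 CPM in S209A, and 33.0, 27.5 and 7.48 CPM in chow. Both pools of S209A were below every other animal.

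Kcnq1ot1 had 210 and 30 heavy counts in keto 1 and 2, 16 in S209A, and 4, 6 and 59 in chow 1, 2 and 3. Its light counts were 66 and 6 in keto, 8 in S209A, and 105, 45 and 73 in chow. The heavy level was 33.0 and 5.79 CPM in keto, 1.64 CPM in S209A, and 0.992, 0.868 and 4.29 CPM in chow. The keto animals again stood above the chow animals, with keto 2 close to chow 3. The light level was 12.6 and 2.12 CPM in keto, 1.03 CPM in S209A, and 18.3, 6.46 and 5.69 CPM in chow, with overlap of the diets.

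Gas5 had the lowest total of the 4 over the libraries, 328 counts, though not the lowest count in each. It had 6 and 8 heavy counts in keto 1 and 2, 70 in S209A, and 1, 24 and 84 in chow 1, 2 and 3, with light counts of 8 and 10 in keto, 29 in S209A, and 21, 22 and 45 in chow. Its heavy level was 0.942 and 1.54 CPM in keto, 7.19 CPM in S209A, and 0.248, 3.47 and 6.11 CPM in chow, so both keto animals lay between chow 1 and chow 2. Its light level was 1.52 and 3.53 CPM in keto, 3.72 CPM in S209A, and 3.67, 3.16 and 3.50 CPM in chow. The 3 chow light libraries were close to each other, with the highest 1.16 times the lowest.

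**Figure D1:**
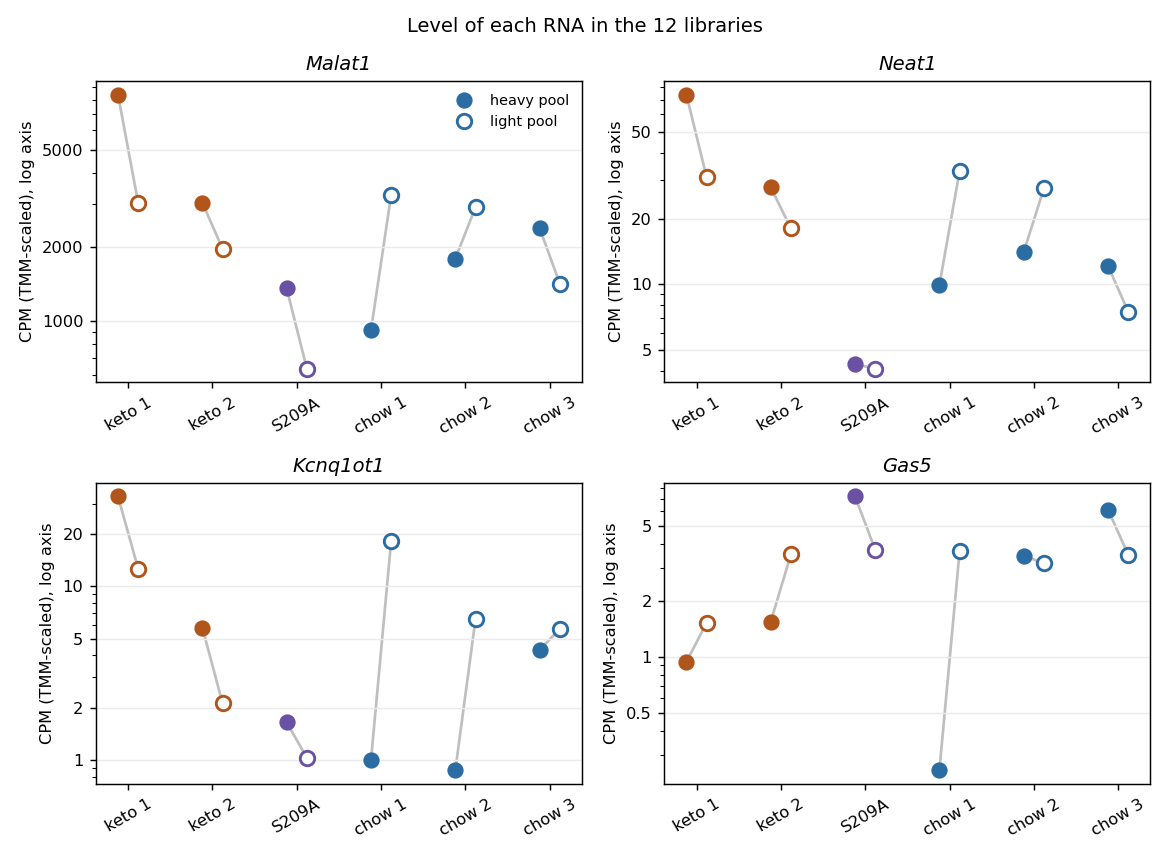
Level of each RNA in CPM (TMM-scaled, log axis) in the 6 animals, with filled points for the heavy pool and open points for the light pool, and a line joining the pools of 1 animal. The lines of Malat1 and Neat1 slope down to the light pool in keto, S209A and chow 3 and up to it in chow 1 and chow 2, while Gas5 goes the other way in keto.

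Heavy over light differed in sign between animals. Malat1 had a log2 ratio of heavy over light CPM of 1.47 in keto 1, 0.63 in keto 2, 1.09 in S209A, -1.85 in chow 1, -0.70 in chow 2 and 0.76 in chow 3. Neat1 had 1.26 and 0.63 in keto, 0.07 in S209A, and -1.74, -0.97 and 0.70 in chow, near Malat1 in every animal except S209A. Kcnq1ot1 had 1.39 and 1.45 in keto, 0.68 in S209A, and -4.21, -2.89 and -0.40 in chow. Gas5 had -0.69 and -1.19 in keto, 0.95 in S209A, and -3.89, 0.14 and 0.80 in chow. Of the 3 nuclear RNAs, Kcnq1ot1 was lower in heavy than in light in all 3 chow animals. Malat1 and Neat1 were lower in heavy in chow 1 and chow 2. The protein-coding share of the pools differed between animals too. It was 15.9% in heavy and 6.53% in light in chow 1, and 22.2% and 8.16% in chow 2. In chow 3 it was 29.7% and 39.3%, and in S209A 29.6% and 38.0%. For keto 1 it was 5.60% and 6.61%, and for keto 2 6.01% and 4.09%. The part of this share in the ratios was not tested.

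Among all 10555 genes kept, 16.0% were lower in heavy than in light in all 3 chow animals, as Kcnq1ot1 was. In both keto animals, 25.9% of genes were higher in heavy, as the 3 nuclear RNAs were, and 23.2% were lower in heavy, as Gas5 was. Of all genes, 13.3% had both keto ratios above all 3 chow ratios, a pattern that only Kcnq1ot1 showed among the 4. The rule that chose the 4 RNAs used these ratios, so nothing is read from how their counts compare with those shares. Percentiles of heavy over light were taken within each animal. They ranked among kept genes with at least 10 counts over its heavy and light pools, 8066 (keto 2) to 10024 (chow 3) genes. Within chow 1, Kcnq1ot1 stood at percentile 3.59, Gas5 at 4.97 and Malat1 at 12.3. Within keto 1, Malat1 stood at percentile 91.7, Kcnq1ot1 at 90.6 and Gas5 at 22.6. Malat1 was at 68.8 in keto 2 but at 82.1 in chow 3, and at 83.3 in S209A and 29.7 in chow 2. Kcnq1ot1 was at 83.2 in keto 2, 29.4 in chow 3, 72.4 in S209A and 5.50 in chow 2. Gas5 was at 13.95 in keto 2, 82.83 in chow 3, 80.35 in S209A and 55.76 in chow 2.

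The counting error differed by RNA. Most low counts were even numbers, so 95% exact binomial (Clopper-Pearson) intervals were computed on halved counts, and they cover counting error only. For Malat1 the interval in chow 1 ran from -1.92 to -1.77, and in keto 2 from 0.57 to 0.69. For Kcnq1ot1 it ran from -7.29 to -2.28 in chow 1, from -5.28 to -1.16 in chow 2, and from -1.16 to 0.34 in chow 3. In keto it ran from 0.82 to 2.00 in animal 1 and from -0.37 to 3.88 in animal 2. For Gas5 it included 0 in keto 1, keto 2 and chow 2, and in chow 1, with 1 heavy count, it ran from -13.98 to -0.37.

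**Figure D2:**
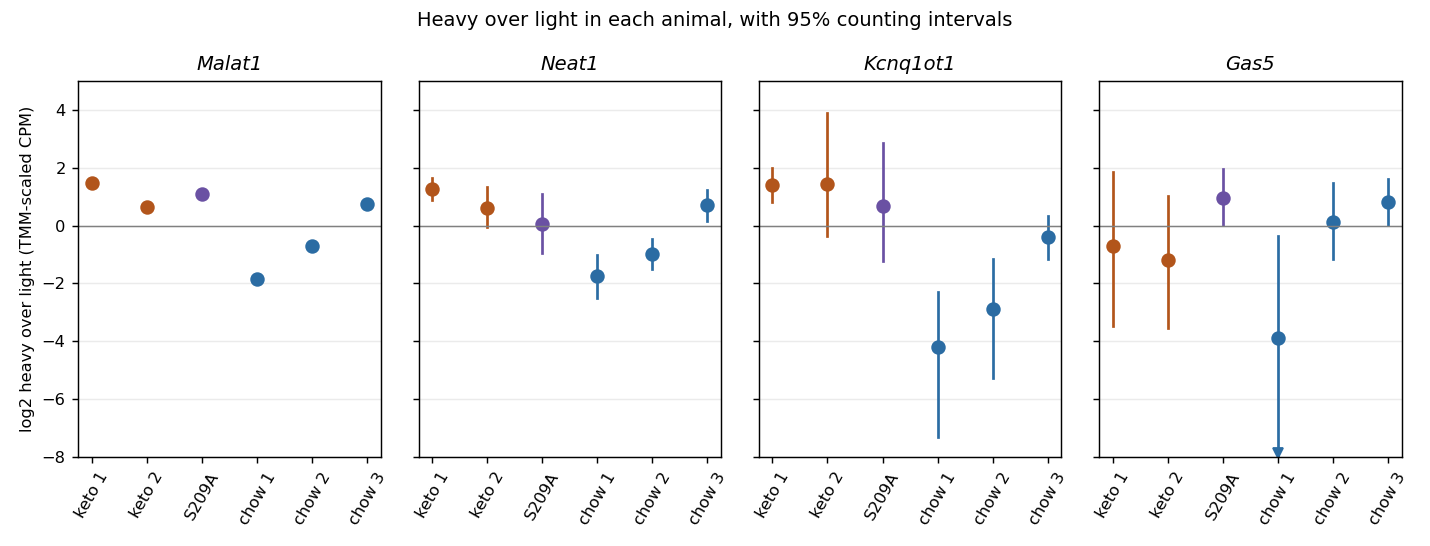
Log2 ratio of heavy over light CPM (TMM-scaled) per animal, with 95% counting intervals on halved counts as bars. Kcnq1ot1 lies at 1.39 and 1.45 in keto and between -4.21 and -0.40 in chow. The Gas5 interval of chow 1 goes on below the axis to -13.98, as the arrow shows.

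The mean log2 ratio of heavy over light was 1.05 ± 0.60 in keto and -0.60 ± 1.31 in chow for Malat1 (SD, n = 2 and n = 3). For Neat1 it was 0.94 ± 0.45 in keto and -0.67 ± 1.25 in chow, and 1.42 ± 0.04 in keto and -2.50 ± 1.93 in chow for Kcnq1ot1. It was -0.94 ± 0.35 in keto and -0.98 ± 2.54 in chow for Gas5. Without chow 1 the chow mean was 0.03 for Malat1 and 0.47 for Gas5, and -1.65 for Kcnq1ot1. The sign in single animals also depended on the scaling. With plain library totals in place of TMM, chow 2 had 0.31 for Malat1 and 0.04 for Neat1, and S209A had -0.06 for Neat1. With the protein-coding total as library size, Gas5 had -0.29 in chow 2. Kcnq1ot1 kept its sign in every animal under TMM, median-of-ratios size factors, library totals and protein-coding totals.

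Ratios of 2 RNAs within a library do not depend on library size, and each is a ratio of counts that was not corrected for length. Malat1 over Neat1 was 114 in heavy and 97.9 in light in keto 1, 109.4 and 109.0 in keto 2, and 314 and 155 in S209A. It was 91.9 in heavy and 99.2 in light in chow 1, 127.5 and 105.5 in chow 2, and 197 in heavy and 189 in light in chow 3. The 4 libraries with a HISAT2 header thus ranged from 155 to 314 and the other 8 from 91.9 to 127.5, with no overlap. Malat1 over Gas5 was 171 to 403 in the 4 and 515 to 8909 in the other 8, and Neat1 over Gas5 was 0.60 to 2.13 in the 4 and 4.04 to 78.3 in the other 8. Malat1 over Kcnq1ot1 overlapped, with 249 to 824 in the 4 and 179 to 2060 in the other 8. The 4 libraries hold S209A and 1 chow animal and share a header type and a title wording, so these cannot be told apart from the animals.

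The ratios between the nuclear RNAs, which follow from the values that chose them and are a description, also varied between the pools. The log2 of Malat1 over Neat1, heavy minus light, was 0.22 and 0.00 in keto 1 and 2, 1.02 in S209A, and -0.11, 0.27 and 0.06 in chow. For Malat1 over Kcnq1ot1 it was 0.08 and -0.82 in keto, 0.41 in S209A, and 2.36, 2.20 and 1.16 in chow. All chow animals had relatively less Kcnq1ot1 than Malat1 in the heavy pool, and both keto animals and S209A were below the chow range of this ratio. For Malat1 over Gas5 it was 2.17 and 1.82 in keto, 0.14 in S209A, and 2.04, -0.84 and -0.04 in chow, so chow 1 was like keto and the other chow animals were not.

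**Figure D3:**
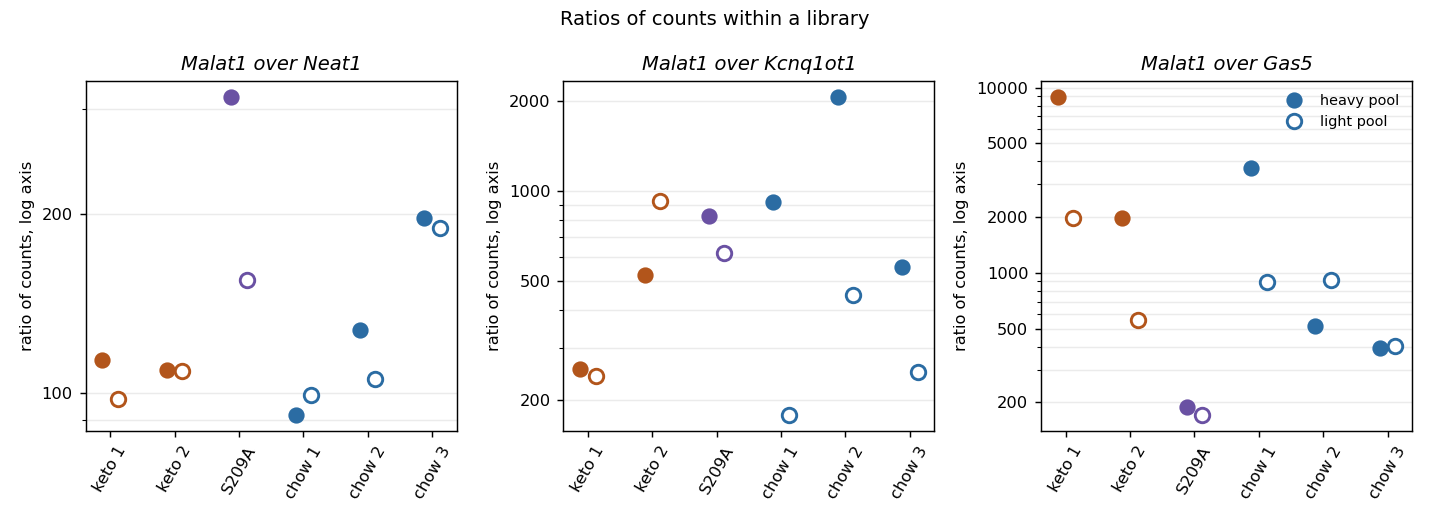
Ratio of Malat1 counts to those of Neat1, Kcnq1ot1 and Gas5 within each library (log axes), with filled points for heavy and open points for light. Malat1 over Neat1 is 155 to 314 in S209A and chow 3 and 91.9 to 127.5 elsewhere, and Malat1 over Kcnq1ot1 is higher in heavy than in light in all 3 chow animals.

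Ketogenic diet was set against chow within each pool with edgeR's quasi-likelihood test over all genes. Levels per animal were known when the RNAs were chosen, so these tests are not independent evidence. In the heavy pool Malat1 averaged 5715 ± 3787 CPM in keto and 1697 ± 744 CPM in chow (SD, n = 2 and n = 3), a log2 difference, keto minus chow, of 1.75 ± 0.81 (SE; edgeR adjusted p = 0.613). Neat1 averaged 50.8 ± 32.5 CPM in keto and 12.04 ± 2.06 CPM in chow, a log2 difference of 2.07 ± 0.52 (edgeR adjusted p = 0.462). Kcnq1ot1 averaged 19.4 ± 19.2 CPM in keto and 2.05 ± 1.94 CPM in chow, a log2 difference of 3.15 ± 0.84 (edgeR adjusted p = 0.476). None of the 3 passed the threshold of 0.05. Gas5 averaged 1.24 ± 0.42 CPM in keto and 3.28 ± 2.94 CPM in chow, a log2 difference of -1.44 ± 1.06 (edgeR adjusted p = 0.764).

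Of 10552 genes tested on heavy libraries, edgeR called 0 (0.0%). At an unadjusted p under 0.05 there were 862, and DESeq2 called 111 genes and limma-voom 4. The keto animals were above the chow animals without overlap for Malat1, Neat1 and Kcnq1ot1, as they were for 14.5% of all genes. The protein-coding share of the heavy libraries, 5.60% and 6.01% in keto and 15.9% to 29.7% in chow, also separated the diets, and its part in these differences was not tested. The diets overlapped for Gas5, and 13.4% of all genes had keto below chow without overlap. Keto 1 carried much of the size, since without it the log2 differences were 0.85 for Malat1, 1.21 for Neat1 and 1.45 for Kcnq1ot1. With plain library totals the median gene moved to -1.60, from -0.04 under TMM, and the differences became -0.03 for Malat1, 0.43 for Neat1 and 1.23 for Kcnq1ot1. With the title wording as a batch term, which sets keto against chow 1 and chow 2, Kcnq1ot1 had 4.37 ± 0.86 (edgeR adjusted p = 0.00471) and Neat1 2.08 ± 0.56 (edgeR adjusted p = 0.0543). In that fit Malat1 had 2.08 ± 0.69 (edgeR adjusted p = 0.143) and Gas5 -0.66 ± 1.07 (edgeR adjusted p = 0.878). DESeq2 put Neat1 past the threshold at 2.08 (DESeq2 adjusted p = 0.0260) and Kcnq1ot1 at 3.20 (DESeq2 adjusted p = 0.0334).

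In the light pool the diets differed less in size for all 4 RNAs, and none passed the test. Malat1 averaged 2491 ± 747 CPM in keto and 2531 ± 985 CPM in chow, a log2 difference of -0.02 ± 0.93 (edgeR adjusted p = 0.999). Neat1 averaged 24.4 ± 9.07 CPM in keto and 22.7 ± 13.4 CPM in chow, a log2 difference of 0.13 ± 0.61 (edgeR adjusted p = 0.987). For Kcnq1ot1 the means were 7.34 ± 7.38 CPM in keto and 10.2 ± 7.09 CPM in chow, a log2 difference of -0.40 ± 0.76 (edgeR adjusted p = 0.945). For Gas5 they were 2.53 ± 1.42 CPM in keto and 3.44 ± 0.26 CPM in chow, a log2 difference of -0.50 ± 0.72 (edgeR adjusted p = 0.925). The diets overlapped in every one of the 4. Of 10551 genes tested on light libraries, edgeR called 0 (0.0%), as did DESeq2 and limma-voom. An unadjusted p under 0.05 was reached by 640 of them. In that pool 11.2% of all genes had keto above chow without overlap and 14.7% had keto below it.

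The keto-minus-chow difference in log2 heavy over light was fitted to the 12 libraries together, with animal as a blocking factor. The per-animal ratios were what chose the RNAs, so this test supports nothing on its own. For Kcnq1ot1 the difference was 3.66 ± 0.87 (edgeR adjusted p = 0.0177). For Malat1 it was 1.65 ± 0.75 (edgeR adjusted p = 0.769), for Neat1 1.62 ± 0.62 (edgeR adjusted p = 0.613), and for Gas5 -0.54 ± 1.27 (edgeR adjusted p = 0.992). The test called 0.189% of 10555 genes, 3 of them higher and 17 lower, and Kcnq1ot1 ranked 15 by p.

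The Kcnq1ot1 call was lost without any 1 of 4 animals, with an adjusted p of 0.396 without keto 1, 0.763 without keto 2, 0.716 without chow 1 and 0.380 without chow 2 (edgeR). Its size over these and the fit without chow 3 ran from 2.84 to 4.94. Without chow 3 the differences were 2.36 for Malat1 (edgeR adjusted p = 0.00138), 2.33 for Neat1 (edgeR adjusted p = 0.00427) and 4.94 for Kcnq1ot1 (edgeR adjusted p = 3.61e-05), and 214 genes were called. Gas5 was at 0.37 in that fit (edgeR adjusted p = 0.984).

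**Figure D4:**
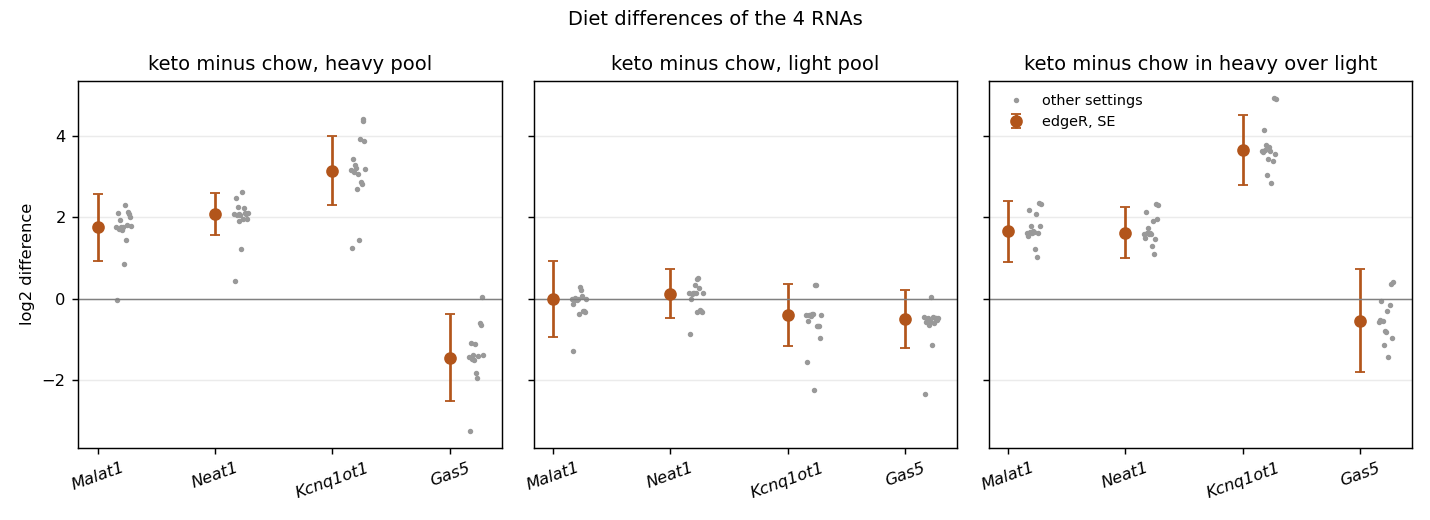
Log2 difference, keto minus chow, in the heavy pool, in the light pool and in heavy over light, with the edgeR estimate and its SE in orange and the values under other settings in grey. In the heavy pool Malat1, Neat1 and Kcnq1ot1 lie at 1.75, 2.07 and 3.15 and Gas5 at -1.44, and in the light pool the 4 lie between -0.50 and 0.13.

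The S209A mouse was a single animal, so its values stand beside the chow range with no test. Its heavy-over-light log2 ratio was 1.09 for Malat1, 0.68 for Kcnq1ot1 and 0.95 for Gas5, each above the highest chow animal, which had 0.76, -0.40 and 0.80 for the same RNAs. Chow 3 was that animal for all 3 and shares its header type. Counting intervals of S209A and chow 3 overlapped for Kcnq1ot1, at -1.22 to 2.86 against -1.16 to 0.34. They also overlapped for Gas5, at 0.03 to 1.94 against 0.03 to 1.61, but not for Malat1, at 1.03 to 1.16 against 0.72 to 0.80. The share of all genes with S209A above every chow animal was not computed. For Neat1, S209A had 0.07, within the chow range of -1.74 to 0.70. Neat1 levels were below the chow range in both pools, at 4.31 CPM against a chow low of 9.92 in heavy and 4.11 CPM against 7.48 in light. Gas5 in the heavy pool was at 7.19 CPM, above the chow high of 6.11 CPM.

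Lists of related genes were described beside the 4 RNAs by counts and medians, with the 4 RNAs themselves left out. Of 19 other nuclear or untranslated RNAs, 10 were measured, and 8 of the 10 had a positive keto-minus-chow difference in the heavy pool, with a median log2 of 1.94, against 48.4% of all genes and a median of -0.04. None passed the test. Rpph1, the RNA of nuclear RNase P, had 4.11 ± 0.78 (edgeR adjusted p = 0.197). Rn7sk, which holds back the elongation factor P-TEFb, had 3.85 ± 0.66 (edgeR adjusted p = 0.122), and Rmrp, the RNA of RNase MRP, had 1.86 ± 0.60 (edgeR adjusted p = 0.494). Firre, a lncRNA of the X chromosome, had 0.31 ± 0.48 (edgeR adjusted p = 0.909). In chow, heavy over light was positive for 0 of the 10, with a median of -1.15, against a median of -0.10 over all genes. In keto it was positive for 5 of the 10, with a median of 0.00, and for S209A for 6 of the 10, with a median of 0.24.

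Among 18 other snoRNA host lncRNAs, the class of Gas5, 5 were measured. All 5 had a positive heavy-pool difference between the diets, with a median of 0.92, against 48.4% of all genes and a median of -0.04. Gas5 was at -1.44, and none of the 5 passed the test. Snhg20 had 0.92 ± 0.84 (edgeR adjusted p = 0.825) on 196 counts in all libraries, and Snhg17 had 1.93 ± 1.76 (edgeR adjusted p = 0.825) on 70. In chow, heavy over light was positive for 0 of the 5, with a median of -1.03. In keto it was positive for 4 of the 5, with a median of 1.52, and in S209A for 4, with a median of 3.70. Over all genes 45.1% were positive in chow, 51.6% in keto and 51.3% in S209A. Errors were wide, with -0.01 ± 1.51 for Snhg20 and -0.80 ± 2.67 for Snhg17 in chow, and 1.52 ± 2.33 for Snhg8 in keto (SE). No shift of the class is read from these counts. The hosts were counted more sparsely than Gas5, with at most 196 counts over all libraries against 328.

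Of 104 TOP mRNAs, 99 were measured. Their heavy-pool median was -1.60, with 7 of the 99 positive, against 48.4% of all genes and a median of -0.04. Gas5 had the same sign, at -1.44 ± 1.06 (SE). It was at -0.60 without chow 3 and turned to 0.04 with a replicate block over replicates 1 and 2. In the light pool the median of the TOP mRNAs was -1.08, with 23 positive, against 44.0% of all genes and a median of -0.13. None of the 99 passed the test in either pool. Rpl19, a protein of the large ribosomal subunit, had -2.63 ± 0.71 in the heavy pool (edgeR adjusted p = 0.476). Eef2, the translocation factor of elongation, had -0.76 ± 0.56 there (edgeR adjusted p = 0.761). Heavy over light was positive for 82 of the 99 in chow, with a median of 0.60, for 57 in keto, with a median of 0.13, and for 43 in S209A, with a median of -0.06. Over all genes 45.1% were positive in chow, 51.6% in keto and 51.3% in S209A. Gas5 lay below that median in both keto animals, above it in S209A, and on both sides of it in chow.

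The proteins that gather with these RNAs were read from their mRNAs. Of 14 paraspeckle proteins, 13 were measured, with a median of -0.37 in the heavy pool (5 positive) and -0.66 in the light pool (0 positive), against 2.07 and 0.13 for Neat1. Nono, a core paraspeckle protein, had -2.31 ± 0.65 in the heavy pool (edgeR adjusted p = 0.490), and its partner Sfpq had -1.21 ± 0.48 (edgeR adjusted p = 0.536). The 19 nuclear speckle and splicing proteins had a median of -0.46 in the heavy pool (5 positive) and -0.75 in the light pool (2 positive), where 48.4% of all genes were positive in heavy and 44.0% in light. Srrm2, a scaffold of speckles, had -0.46 ± 0.50 in the heavy pool (edgeR adjusted p = 0.862). Son, the other speckle scaffold, had -0.13 ± 0.47 (edgeR adjusted p = 0.975). No member of either list passed the test.

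Of 12 listed genes of the Kcnq1 imprinted domain, 7 were measured. Their heavy-pool median was -0.33 with 2 positive, against 48.4% of all genes and a median of -0.04. These counts do not separate the parental copies, and which of the genes Kcnq1ot1 silences in these livers was not tested. Cd81, a tetraspanin at the edge of the domain, had -0.33 ± 0.49 (edgeR adjusted p = 0.907), and the transporter gene Slc22a18 had -0.87 ± 0.72 (edgeR adjusted p = 0.805). The 10 factors of nonsense-mediated decay, the route by which Gas5 is degraded, had a heavy-pool median of -0.03 with 5 positive. Upf1, its central helicase, had -0.48 ± 0.48 (edgeR adjusted p = 0.845). The 13 mitochondrially encoded mRNAs, which cytosolic ribosomes do not translate, all had a positive keto-minus-chow difference in both pools. Their median was 1.54 in heavy and 1.18 in light, where 48.4% and 44.0% of all genes were positive. With library totals 9 of the 13 were positive in heavy and 10 in light. Their heavy over light was positive for 2 of the 13 in keto, 1 in chow and 9 in S209A. The medians were -0.28 in keto, -0.27 in chow and 0.34 in S209A. Over all genes 51.6% were positive in keto, 45.1% in chow and 51.3% in S209A. None of the 13 passed a diet test.

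The scaling set where these medians lay. With library totals the heavy-pool median between the diets was -1.60 for all genes, 0.35 for the other nuclear RNAs, -0.50 for the snoRNA hosts, -3.48 for the TOP mRNAs and 0.22 for the mitochondrial mRNAs, so that of the snoRNA hosts turned. With protein-coding totals it was 0.37 for all genes, 0.02 for the paraspeckle proteins, 0.04 for the Kcnq1 domain and 0.38 for the decay factors, which turned as well. Under TMM, median-of-ratios factors and both kinds of totals, the heavy-pool median of the other nuclear RNAs lay above that of all genes and the median of the TOP mRNAs below it. For heavy over light, library totals turned the mitochondrial median to 0.03 in keto and 0.15 in chow, and protein-coding totals turned the TOP median to 0.18 in S209A. In chow, library totals left 1 of the 10 other nuclear RNAs and 1 of the 5 snoRNA hosts positive.

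The genes most like each RNA were ranked by Pearson's r of log2 CPM over the 12 libraries among 5679 named genes, as a description. The 12 points share 6 animals, their depth and their header types. For Malat1 they were the zinc finger gene Zfp410 (0.93), the lncRNA Ctcflos (0.92), Neat1 (0.92), the ectonucleotidase Entpd8 (0.90) and the Hippo pathway transcription factor Tead1 (0.89). For Neat1 they were Zfp410 (0.97), Tbc1d24 (0.93), the VIP receptor Vipr1 (0.92), Malat1 (0.92) and the chloride transporter Clcn3 (0.92). For Kcnq1ot1 they were the Polycomb subunit gene Phc3 (0.96), Tead1 (0.91), Rbm14 (0.89), whose product is a paraspeckle protein, the dynein adaptor Hook3 (0.89) and Zfp106 (0.88). For Gas5 they were Clybl (0.93), the dynein subunit Dync1li1 (0.91), the coatomer subunit Arcn1 (0.88), Cops6 of the COP9 signalosome (0.84) and Ktn1 (0.82). None of the Gas5 genes was shared with the other 3 RNAs. Zfp410 and Tead1, each near 2 of them, had 6 to 48 and 2 to 56 counts per library.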

How the data were processed

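RNA sequencing of heavy and light polysome pools of 6 livers was used. Each deposited table holds raw counts by Entrez ID. The tools were Trimmomatic, HISAT2 and StringTie with mm10, per the submitters' processing notes, whereas Bowtie2 or HISAT2 is named per the file headers. The counting tool, strandedness and gene models were not given in the sources used here. Symbols came from RefSeq's table of GRCm38.p6, which named 25275 of 27179 IDs, and start sequences from RefSeq's promoter table of the same assembly.

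Genes were kept by filterByExpr (minimum of 10 counts) over all 12 libraries, leaving 10555, and TMM factors ran from 0.324 to 3.12. Tests were edgeR 4.0.16 (quasi-likelihood, two-sided, Benjamini-Hochberg over all genes tested, threshold 0.05) in R 4.3.3, with DESeq2 1.42.0 and limma 3.58.1 as alternatives. Only the edgeR tests were also run on simulated counts. Those were drawn without animal effects and from the same gene proportions in all libraries, apart from the genes changed on purpose. They therefore do not show how the tests behave on these libraries. The SE is |log2 change| divided by the root of edgeR's F. Animals are the replicates, and each p-value sets a difference against the spread between animals of a group, which edgeR moderates across genes. In the heavy-over-light fit that is the spread of the pool difference, since animal is a block. S209A, a single animal, adds no spread of its own. Heavy and light libraries of 1 animal were paired by their labels, and their deviations from the chow means correlated at r = 0.307, 0.305 and 0.463 across genes in chow 1, 2 and 3.

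The 4 RNAs and the lists were chosen with earlier results of these data known. List examples are up to 4 of the most counted members, of which some are printed. The genes most like each RNA were the 5 with the highest r among named genes with a mean of at least 20 counts, without predicted genes and pseudogenes, at a prior count of 2. Alternatives covered scaling, filters, tools, left-out animals, title wording, blocks and halved counts.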

Additional observations from a re-analysis of the deposited data

Results flagged for a closer look

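Kcnq1ot1 was singled out because its heavy-over-light ratio differed between the diets by a test of that difference itself. That ratio was among the values by which the RNA was chosen, so the test is not independent evidence. The log2 ratio of heavy over light was higher in keto than in chow by 3.66 ± 0.87 (edgeR adjusted p = 0.0177), at 1.39 and 1.45 in the 2 keto animals and -4.21, -2.89 and -0.40 in the 3 chow animals. The difference had the same direction under all 14 alternatives that gave an adjusted p, with values from 2.84 to 4.94 and adjusted p from 3.61e-05 to 1.0, and 8 of the 14 lost the call. The heavy libraries of chow 1 and chow 2 held 4 and 6 counts of it.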

How the results depend on the processing

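The heavy-pool count of called genes moved the most, from 0 to 384 with library totals (2 higher and 382 lower), 6 with protein-coding totals, 112 without a low-count filter, 111 with DESeq2, 4 with limma-voom, 126 with title wording as batch, and 98 with a replicate block over replicates 1 and 2. Leaving out 1 replicate gave 0 to 67 genes, the highest without chow 3. A lone keto animal was then assumed to vary like the other groups. In the light pool only the fit without a filter moved it, to 39. The count for heavy over light was 0 with library totals, with a filter at a mean of 50 counts and with no replicate block for the animal, 105 without the animals titled fed, and 0 to 214 with 1 replicate left out (214 without chow 3, 15 without keto 1, 2 without keto 2, 3 without chow 1 and 0 without chow 2).

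In the heavy pool Malat1 turned to -0.030 with library totals and Gas5 to 0.041 with the replicate block. Neat1 passed without a filter (2.05) and with DESeq2 (2.08). Kcnq1ot1 passed without a filter (3.12), with DESeq2 (3.20), with title wording as batch (4.37), with the replicate block (3.88) and without chow 3 (4.40, edgeR adjusted p = 0.0157). With 1 replicate left out the heavy-pool values were 1.45 to 4.40 for Kcnq1ot1.

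In the light pool Malat1 turned to 0.013 when genes needed a mean of 50 counts and Neat1 to -0.88 with library totals, -0.0081 with protein-coding totals, -0.29 with title wording as batch and -0.33 with the replicate block. With 1 replicate left out the light values were -0.37 to 0.29 for Malat1, -0.33 to 0.51 for Neat1, -2.25 to 0.35 for Kcnq1ot1 and -1.14 to 0.032 for Gas5.

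For heavy over light, keto minus chow, Kcnq1ot1 missed the threshold with library totals (3.61), with the filter at a mean of 50 counts (3.77), with limma-voom (3.04) and with no replicate block for the animal (3.56). DESeq2 gave it no adjusted p (3.76, unadjusted p = 0.000501 from the DESeq2 model). Without the animals titled fed, Malat1 (2.32) and Neat1 (2.29) passed and Gas5 turned to 0.40. With 1 replicate left out the values were 1.02 to 2.36 for Malat1, 1.09 to 2.33 for Neat1, 2.84 to 4.94 for Kcnq1ot1 and -1.43 to 0.37 for Gas5. The chow means of heavy over light ran from -1.27 to 0.030 for Malat1 and from -1.87 to 0.47 for Gas5. The cause of these changes was not tested. Halving the counts, chosen after seeing the data, kept the Kcnq1ot1 call (3.42, edgeR adjusted p = 0.0237) and moved no direction or call of the 4 RNAs.

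Keto and chow animals share the numbers 1 and 2, but deviations of same-numbered libraries correlated at only -0.07 and 0.05 in heavy and -0.05 and 0.01 in light across genes, so the numbers were not taken as pairs. Depth limits Gas5 and Kcnq1ot1, with 1 to 84 and 4 to 210 counts per library, and Gas5 has no value at a mean of at least 50 counts.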

Other observations

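Xist, the nuclear RNA that coats the inactive X chromosome of females, had 26 heavy and 8 light counts in keto 2, 4 light counts in chow 1 and 0 in the other 9 libraries of these male mice. Counts of 4 Y-linked genes summed to 40 to 334 per library, and keto 2 had the lowest sum in each pool, 56 in heavy and 40 in light. These sums were not scaled for depth. Keto 2 also had the fewest protein-coding counts in each pool, 550108 in heavy and 356666 in light. By TMM-scaled library size keto 2 light was the smallest library, at 2832263. Keto 2 heavy, at 5185167, was larger than chow 1 heavy, at 4033837, which had 101 Y-linked counts. The part of depth in these sums and the source of the Xist counts were not tested. Norad, a cytoplasmic lncRNA that binds Pumilio proteins, had 75 and 52 heavy counts in keto 1 and 2, 32 in S209A, and 2, 18 and 26 in chow 1, 2 and 3, against light counts of 54 and 62 in keto, 10 in S209A, and 62, 80 and 26 in chow. Tug1, a lncRNA found in nucleus and cytoplasm, had 43 and 14 heavy counts in keto, 17 in S209A, and 12, 2 and 25 in chow, with 26 and 10 light counts in keto, 10 in S209A, and 12, 12 and 38 in chow.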
